A study of Mus musculus with 6 samples.

Results

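Lysosome and autophagy genes were followed in TUBO cells, a mouse mammary carcinoma line. Of 42 genes listed, 40 had a probe named by symbol in the annotation of the array, out of 16561 named genes in all. Npc1 and Tecpr1 were not analysed here on the arrays, and Tecpr1 enters only the promoter counts. The 40 genes were 24 of the lysosome, 14 of autophagy and the transcription factor genes Tfeb and Tfe3, and each was read on the probe with the highest mean over the 6 arrays of the non-normalized table. The line was grown from a single mammary tumour of a female BALB-neuT mouse, a strain that develops such tumours because of an oncogene transgene expressed in the mammary gland, so both groups are 1 tumour line in culture and not mammary tissue. All cells grew attached as a monolayer. By title, the 3 TMA arrays hold RNA from serum-free mammosphere medium, that is DMEM-F12 with bFGF and EGF at 20 ng/ml each, albumin at 0.4% and insulin at 5 μg/ml, while the 3 TDA arrays hold RNA from DMEM containing fetal calf serum at 20%. The source names of the same samples give each group the opposite medium, so every difference below is TMA minus TDA by title, and which medium a direction belongs to remains unsettled. Whether replicates came from separate cultures is not said in any label, and the p-values then measure only how far these samples spread, a spread that may be technical.

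Lysosomes are acidic organelles that break down proteins, lipids and sugars. Membrane proteins such as LAMP1 line them, a proton pump (the V-ATPase) acidifies them, and many hydrolases work in their lumen. Macroautophagy delivers cytoplasm to them: the ULK1 kinase and a lipid kinase complex with Beclin 1 start a membrane, WIPI proteins read its lipid, the ATG7, ATG5 and ATG12 conjugation machinery attaches ATG8 proteins (the LC3 and GABARAP families) to it, and receptors such as p62 tether cargo to the ATG8 proteins. Transcript levels of these genes do not measure the rate of autophagy.

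Each array gave 1 intensity for each of 25697 probes, with a mean raw signal between 560.2 and 845.4. Precision is limited by the number of arrays. All arrays lay on 1 BeadChip, the TMA arrays in positions 1 to 3 and the TDA arrays in positions 4 to 6, so position and group cannot be told apart. Over all probes, which are not independent replicates, TMA1 was about as close to TDA1 (r = 0.955) as to TMA2 (0.947) and TMA3 (0.955), and TDA2 correlated with TDA3 at only 0.935. Values are log2 of the background-corrected signal plus an offset of 50 after quantile normalization, a scale that understates the change of dim genes. Groups were compared with limma and Benjamini-Hochberg adjustment over the 12848 probes whose mean exceeded the median of all probes. Of these, 387 passed an adjusted p of 0.05. Single arrays decided that number: it was 691 without TMA1, 21 without TMA2, 3 without TMA3, 0 without TDA1 (with 1874 probes at an unadjusted p under 0.05), 632 without TDA2 and 122 without TDA3.

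The listed autophagy genes, and among them those of the ATG8 family and of the first steps, were mostly higher on the TMA arrays. The listed lysosome genes lay on both sides of 0. Only Wipi1, which encodes a lipid-binding protein of the forming autophagosome, passed the threshold in limma, at 10.99 ± 0.28 against 9.83 ± 0.56 (mean ± SD of log2 values, n = 3 per group), which is a 2.24-fold rise. Thus 1 of 13 tested autophagy genes, 0 of 23 tested lysosome genes and 0 of 2 transcription factor genes passed, against 3.44% of all 8961 genes tested with 1 probe each, so the share called was not above the background for the lysosome. The median log2 difference over the measured genes was 0.36 for autophagy and 0.06 for the lysosome, beside a median of -0.00499 over all tested genes. Gla and Gabarapl2 were too dim to be tested.

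Counts at looser limits parted the lists in the same way. At an unadjusted p under 0.05 in limma, 6 of 13 tested autophagy genes were higher and 0 lower, beside backgrounds of 10.1% and 9.28% of genes. For the lysosome, 1 of 23 was higher and 1 lower. The 3 TMA values all lay above the 3 TDA values in 5 autophagy genes and 1 lysosome gene, and all below in 0 and 1, where 12.4% and 11.4% of all tested genes were so separated. A positive difference was found in 12 of 13 autophagy genes and 14 of 23 lysosome genes, beside 49.3% of all tested genes. Whether the lists differ from each other was not tested.

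**Figure D1:**
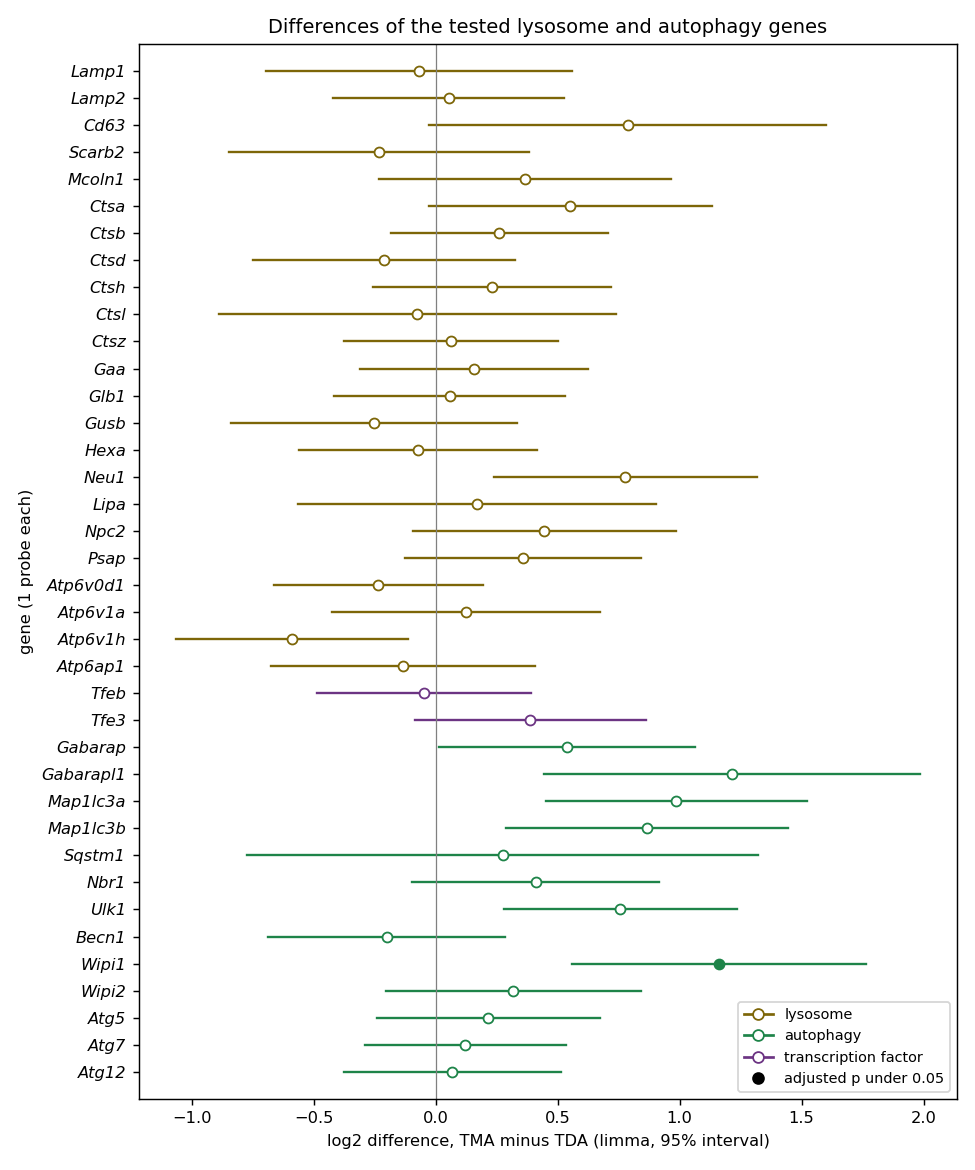
Log2 differences, TMA minus TDA, with limma's 95% intervals (horizontal axis) for the 38 tested genes (vertical axis), coloured by list, with a filled point where the adjusted p was under 0.05. Wipi1 has the only filled point, and the intervals of Gabarapl1, Map1lc3a, Map1lc3b, Ulk1, Gabarap and Neu1 also lie above 0 while that of Atp6v1h lies below it.

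The ATG8 proteins coat the autophagosome membrane and bind cargo receptors. Gabarapl1, a GABARAP relative, read 9.67 on TMA1, 10.60 on TMA2 and 10.96 on TMA3, compared with 8.47 on TDA1, 9.62 on TDA2 and 9.49 on TDA3. Values of other genes follow the same order of arrays. The groups were parted by a narrow gap between TMA1 and TDA2, with TDA1 far below the other arrays. The log2 difference was 1.21 with a standard error of 0.35 and did not pass the threshold (limma adjusted p = 0.0860). Without TDA1 it was 0.84, and without TMA1 or TDA2 it was 1.59 and 1.42 and passed (adjusted p = 0.0229 and 0.0288).

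Map1lc3a, which encodes LC3A, read 9.18, 9.64 and 9.65 on the TMA arrays, whereas the TDA arrays gave 8.22, 8.30 and 8.98. TDA3 came close to TMA1, and the groups did not overlap. The difference of 0.99 ± 0.25 (standard error) fell just short of the threshold (limma adjusted p = 0.0539), while a second, dimmer probe of the gene passed it, with a difference of 1.22 (adjusted p = 0.00988). On that probe the TMA arrays read 9.13, 9.35 and 9.21 and the TDA arrays 7.92, 8.00 and 8.10, so its groups lay far apart relative to their spread.

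Map1lc3b encodes LC3B, the usual marker of autophagosomes. It read 8.50, 9.60 and 8.97 in the TMA group beside 7.96, 8.20 and 8.32 in the TDA group. The TDA arrays were close together and TMA2 stood highest, and the difference of 0.87 ± 0.27 (standard error) did not pass (limma adjusted p = 0.102). It was 0.58 without TMA2 and passed without TMA1 (adjusted p = 0.0304).

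Gabarap itself, on its only probe, read 12.43, 12.93 and 12.14 on TMA arrays, compared with 11.79, 11.84 and 12.25 on TDA arrays. TMA3 lay below TDA3, so the groups overlapped, and the difference was 0.54 (limma adjusted p = 0.255). Gabarapl2, the last member, was dim on both of its probes and differed by 0.15 on the brighter one. No probe sequence was used here, so reads of 1 family member by the probe of another cannot be told apart from the gene's own signal.

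**Figure D2:**
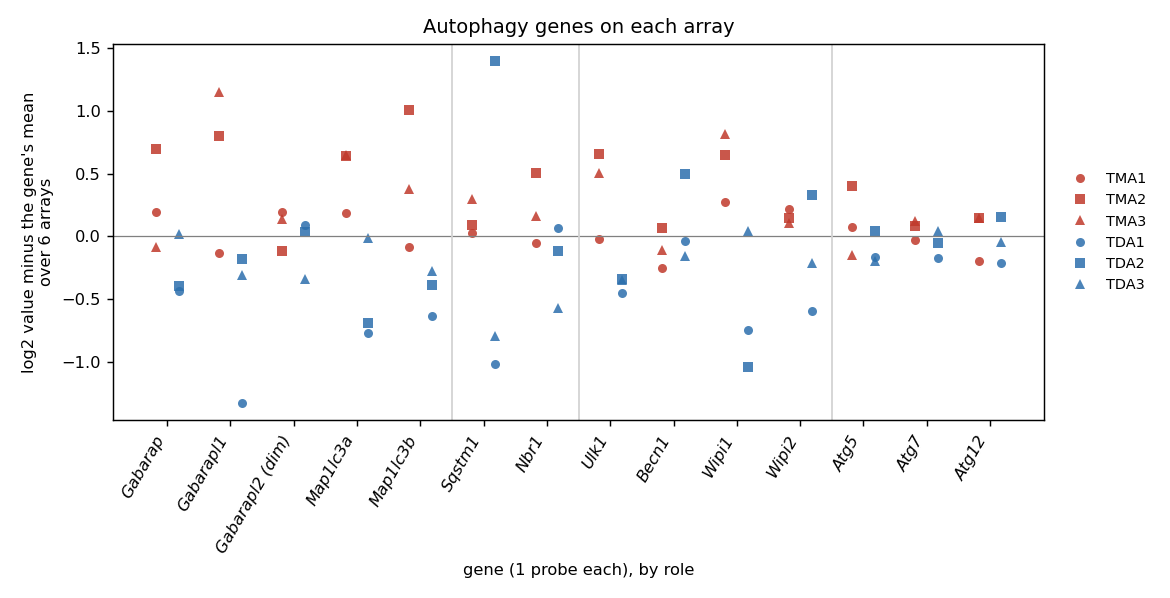
Each gene's log2 value on each array minus its mean over the 6 arrays (vertical axis) for the 14 autophagy genes (horizontal axis), in red for TMA and blue for TDA, with a circle, square or triangle for replicate 1, 2 or 3 and grey lines between roles. Red points lie above all blue points for Gabarapl1, Map1lc3a, Map1lc3b, Ulk1 and Wipi1, and the blue square of TDA2 stands far above every other point for Sqstm1.

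WIPI1 binds phosphatidylinositol 3-phosphate on the membrane from which autophagosomes grow. Wipi1 read 10.69, 11.06 and 11.22 on the TMA arrays, whereas the TDA arrays gave 9.67, 9.37 and 10.45. TDA3 was the highest of its group and still below all TMA arrays, and the difference of 1.16 ± 0.28 (standard error) passed the threshold (limma adjusted p = 0.0450). The other probes of the gene gave 1.15 and 1.31 and passed as well (adjusted p = 0.0287 and 0.0242). The call nevertheless sat at the edge: it was lost without TMA2, TMA3, TDA1 or TDA2, with adjusted p up to 0.208 and differences between 0.93 and 1.12, and it held in 7 of 16 other settings.

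ULK1 is the kinase that starts autophagy when mTORC1, the nutrient-sensing kinase, releases it. Ulk1 read 9.16, 9.83 and 9.68 in the TMA group beside 8.73, 8.84 and 8.83 in the TDA group. The TDA arrays agreed closely and all TMA arrays lay above them. The difference of 0.76 ± 0.22 (standard error) did not pass on this probe (limma adjusted p = 0.0847), and the second probe gave 0.91 and passed (adjusted p = 0.0321).

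Becn1 encodes Beclin 1, a subunit of the lipid kinase complex, and read 8.30, 8.62 and 8.44 on TMA arrays, compared with 8.52, 9.05 and 8.39 on TDA arrays. Its groups overlapped, with a difference of -0.20 on the brightest probe and -0.38 on the other, neither past the threshold. Becn1 was thus the 1 tested autophagy gene with a negative difference. Wipi2, the relative of Wipi1 that recruits the conjugation machinery, differed by 0.32, and its other probes by 0.07 and -0.17, so its probes did not share a sign.

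**Figure D3:**
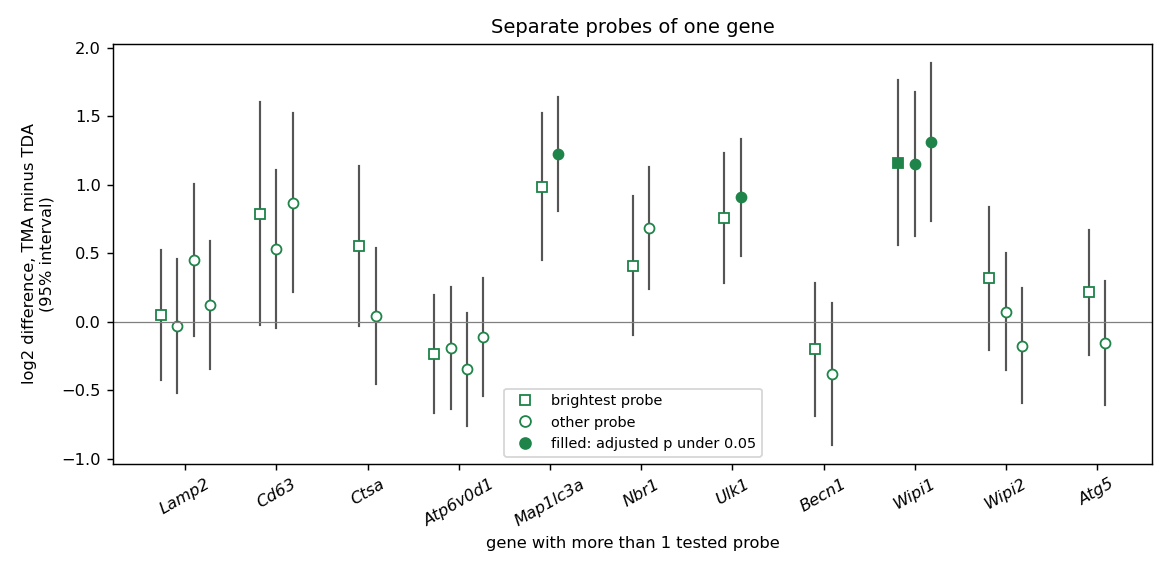
Log2 differences, TMA minus TDA, with limma's 95% intervals (vertical axis) for each tested probe of the 11 genes with more than 1 tested probe (horizontal axis), with a square for the brightest probe and a filled symbol where the adjusted p was under 0.05. All 3 Wipi1 probes and the dimmer probes of Map1lc3a and Ulk1 are filled, while the probes of Lamp2, Wipi2 and Atg5 lie on both sides of 0.

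With any tested probe of a gene allowed to call it, 3 members passed, namely Map1lc3a, Ulk1 and Wipi1. The share of all genes that pass by this looser rule was not computed, so this count has no background beside it. Over all tested probes of the lists, 5 of 22 autophagy probes and 0 of 32 lysosome probes passed, beside 3.01% of all probes tested. Every Wipi1 probe was among these 5. Probes of 1 gene share their RNA and are not replicates. The promoters of Wipi1, Ulk1 and Gabarapl1 are shown because these genes had the called or nearly called differences and an entry in RefSeq's promoter table (build GRCm38.p6). The 250 bases before each annotated start follow, 5′ to 3′ on the strand of the gene, with capitals marking the GC box GGGCGG on either strand:
Wipi1, chr11:109611390-109611639, minus strand: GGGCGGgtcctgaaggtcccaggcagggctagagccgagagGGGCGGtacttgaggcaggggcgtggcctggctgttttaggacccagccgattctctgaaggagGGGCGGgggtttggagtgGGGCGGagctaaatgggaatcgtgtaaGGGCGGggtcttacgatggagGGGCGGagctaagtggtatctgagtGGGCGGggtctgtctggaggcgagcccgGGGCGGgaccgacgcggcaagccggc
Ulk1, chr5:110810082-110810331, minus strand: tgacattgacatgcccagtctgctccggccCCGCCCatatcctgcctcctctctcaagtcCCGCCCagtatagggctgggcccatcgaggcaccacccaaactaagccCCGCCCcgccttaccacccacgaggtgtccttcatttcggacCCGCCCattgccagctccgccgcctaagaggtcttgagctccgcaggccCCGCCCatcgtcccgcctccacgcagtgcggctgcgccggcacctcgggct
Gabarapl1, chr6:129532942-129533191, plus strand: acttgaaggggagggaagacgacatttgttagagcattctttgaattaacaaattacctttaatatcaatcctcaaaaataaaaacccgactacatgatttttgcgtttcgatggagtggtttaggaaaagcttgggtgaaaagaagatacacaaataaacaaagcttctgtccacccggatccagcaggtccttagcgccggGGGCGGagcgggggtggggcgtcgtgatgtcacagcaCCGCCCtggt
Neither the E-box CACGTG nor the FOXO-type letters TGTTTAC occurred on either strand in the 300-base windows (250 before and 50 after the start) of these 3 genes. Of all windows, 7.15% hold the E-box and 3.65% these FOXO-type letters, shares too low for 3 genes to be read against them. Only these exact letters were searched, so other forms of a FOXO site may be present. Within the printed stretch the GC box occurred 8 times for Wipi1, 5 times for Ulk1 and 2 times for Gabarapl1, and 35.7% of all 32851 promoter windows hold at least 1. Matches of letters are a description and not binding sites.

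Receptors carry cargo to ATG8 proteins. Sqstm1 encodes p62, which binds ubiquitin-tagged cargo and is itself degraded by autophagy, and it read 11.97, 12.04 and 12.25 on the TMA arrays, whereas the TDA arrays gave 10.93, 13.35 and 11.16. TDA2 was the highest of all 6 arrays and the other TDA arrays the lowest. The difference over all arrays was 0.28 (limma adjusted p = 0.832), and without TDA2 it was 1.05 and passed (adjusted p = 0.0122). A single array thus decided this gene.

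Nbr1, the receptor related to p62, read 7.60, 8.15 and 7.81 on the TMA arrays, whereas the TDA arrays gave 7.72, 7.54 and 7.08. Its groups overlapped on this probe, with a difference of 0.41. It differed by 0.68 on the other, where all TMA arrays lay above all TDA arrays (limma adjusted p = 0.0948). Of the conjugation genes, Atg5 read 9.90, 10.22 and 9.67 in the TMA group beside 9.66, 9.87 and 9.62 in the TDA group, with overlapping groups. Its difference was 0.22 on this probe and -0.15 on the other. Atg12, whose product is joined to ATG5, read 9.70, 10.04 and 10.04 against 9.68, 10.05 and 9.85, and differed by 0.07. Atg7, the activating enzyme of this step, differed by 0.12. The 95% intervals of these conjugation genes reached at most 0.67, which is below the differences of Wipi1 and Gabarapl1. The intervals of Wipi1 and Gabarapl1 began at 0.56 and 0.44. The intervals thus overlapped, and whether the conjugation genes differed less was not tested.

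Lysosomal membrane proteins showed no call. Lamp1, one of the most abundant proteins of this membrane, read 13.02, 13.27 and 13.01 on TMA arrays, compared with 12.75, 13.92 and 12.83 on TDA arrays. TDA2 was again highest while the other TDA arrays lay lowest, and the difference was -0.07. Without TDA2 it was 0.31, still short of the threshold (limma adjusted p = 0.483). Lamp2, needed for fusion of autophagosomes with lysosomes, differed by 0.05 on its brightest probe and by -0.03, 0.45 and 0.12 on the others, none past the threshold.

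Cd63, a tetraspanin of late endosomes, lysosomes and exosomes, had the largest difference of the 5 measured membrane genes on the list. It read 12.71, 13.50 and 13.91 on the TMA arrays, whereas the TDA arrays gave 12.14, 13.48 and 12.14, so that only TDA2 overlapped the TMA range. The difference was 0.79 ± 0.37 (standard error, limma adjusted p = 0.290). Without TDA2 it was 1.24 and passed (adjusted p = 0.0235), and the other probes gave 0.53 and 0.87, not past the threshold. Scarb2, the receptor that carries glucocerebrosidase to lysosomes, differed by -0.23, and Mcoln1, the lysosomal calcium channel, by 0.37.

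Among the hydrolases, Neu1, the lysosomal sialidase, stood apart from the rest. It read 10.76, 11.71 and 11.14 in the TMA group beside 10.29, 10.57 and 10.43 in the TDA group, with no overlap. The difference of 0.78 ± 0.25 (standard error) did not pass (limma adjusted p = 0.111), was 0.52 without TMA2 and passed without TMA1 (adjusted p = 0.0409). Ctsa, the protective protein that holds the sialidase in its active complex, read 8.11, 8.79 and 9.24 against 8.17, 8.28 and 8.04, with TMA1 inside the TDA range. Its difference was 0.55 (adjusted p = 0.297), while its other probes gave 0.05, 0.03, -0.52 and -0.08, all but the first too dim to be tested. Glb1, the beta-galactosidase of the same complex, differed by 0.06.

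Of the cathepsins, the main lysosomal proteases, 5 among the hydrolases on the list had differences between -0.21 and 0.26. Ctsa (cathepsin A), given above, differed by 0.55. Ctsb read 13.40, 13.28 and 13.33 on TMA arrays, compared with 13.30, 12.78 and 13.15 on TDA arrays, a difference of 0.26 with a 95% interval from -0.18 to 0.71. TDA2 was here the lowest array. The differences of Ctsh, Ctsz, Ctsl and Ctsd were 0.23, 0.06, -0.07 and -0.21, and each had overlapping groups. Ctsl moved most between arrays of 1 group, from 7.27 on TMA2 to 8.48 on TMA3 and from 7.19 on TDA3 to 8.67 on TDA2.

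The remaining hydrolases degrade glycogen, glycolipids, glycosaminoglycans and lipid esters. Gaa (acid alpha-glucosidase), Lipa (acid lipase), Hexa (hexosaminidase A) and Gusb (beta-glucuronidase) differed by 0.16, 0.17, -0.07 and -0.25, with overlapping groups, and the dim Gla (alpha-galactosidase A) by -0.07. Lipa, like Ctsb, was lowest on TDA2, at 6.68 there and 7.98 and 8.21 on TDA1 and TDA3. Among the lipid cofactors, Npc2, which hands cholesterol to the membrane, read 10.37, 11.34 and 10.76 against 10.50, 10.24 and 10.40, a difference of 0.44 (limma adjusted p = 0.376). Psap, the precursor of the saposins that activate sphingolipid hydrolases, read 14.29, 14.31 and 14.75 against 13.92, 13.95 and 14.41, a difference of 0.36 (adjusted p = 0.436). In both genes the groups overlapped. For Npc2, TMA1 lay below TDA1 and TDA3, and for Psap, TDA3 lay above TMA1 and TMA2.

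**Figure D4:**
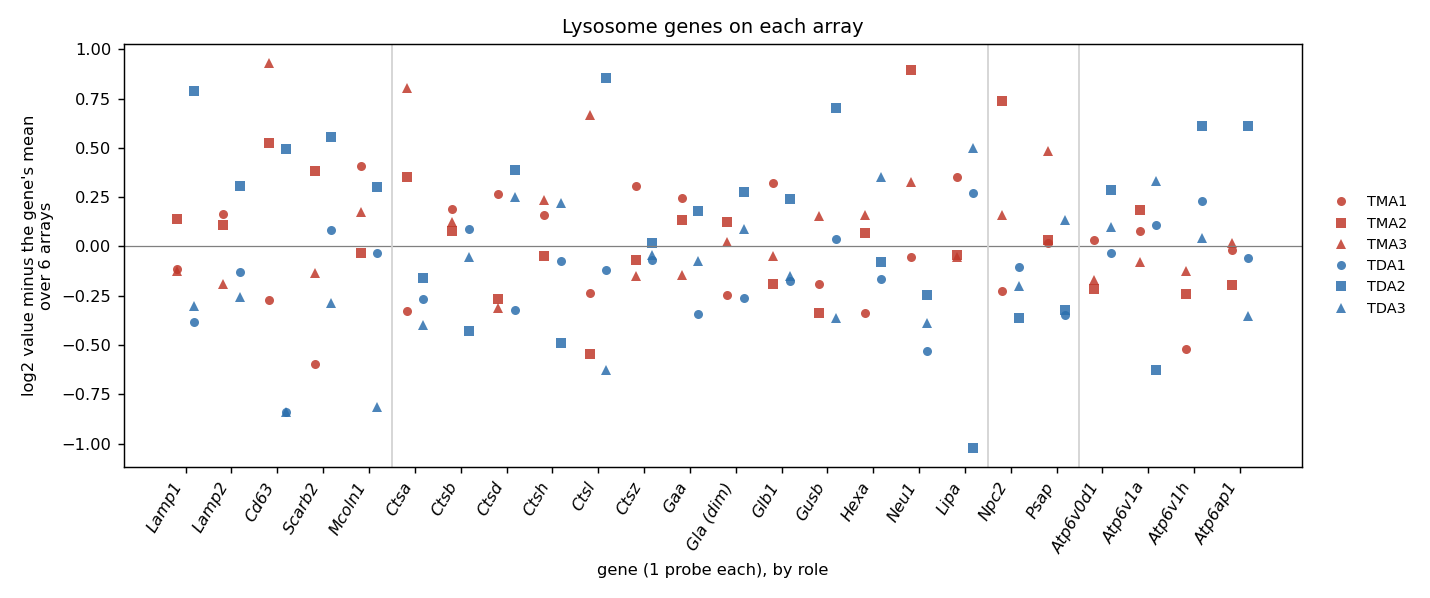
Each gene's log2 value on each array minus its mean over the 6 arrays (vertical axis) for the 24 lysosome genes (horizontal axis), in red for TMA and blue for TDA, with a circle, square or triangle for replicate 1, 2 or 3 and grey lines between roles. The colours are mixed for most genes, Neu1 has all red points above and Atp6v1h all red points below the blue ones, and the blue square of TDA2 is the topmost point for 10 of the 24 genes.

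Of the proton pump genes, 3 of 4 had a negative difference, where 49.3% of all tested genes had a positive one. Atp6v1h, the regulatory subunit H of the cytosolic sector, read 10.52, 10.80 and 10.91 on the TMA arrays, whereas the TDA arrays gave 11.27, 11.65 and 11.08. All TMA arrays lay below all TDA arrays. The difference of -0.59 ± 0.22 (standard error) did not pass the threshold (limma adjusted p = 0.167), and it kept its sign in 16 of 16 other settings, between -0.70 and -0.43. Atp6v0d1, a subunit of the membrane sector, read 11.28, 11.03 and 11.08 against 11.22, 11.54 and 11.35 and differed by -0.23. Its 3 other probes gave -0.19, -0.35 and -0.11, all of 1 sign and none past the threshold. Atp6ap1, an accessory subunit, read 11.97, 11.79 and 12.00 in the TMA group beside 11.93, 12.59 and 11.63 in the TDA group. TDA2 was highest, and the difference was -0.13. The catalytic subunit Atp6v1a differed by 0.12, with TDA2 lowest at 9.07.

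TFEB and TFE3 are transcription factors that switch on lysosome and autophagy genes when mTORC1 activity is low, mainly by moving into the nucleus, which transcript levels do not show. Tfe3 read 8.05, 8.64 and 8.65 in the TMA group beside 8.10, 8.03 and 8.05 in the TDA group. TMA2 and TMA3 lay above all other arrays and TMA1 within the TDA range, with a difference of 0.39 (limma adjusted p = 0.377). Tfeb read 7.26, 6.80 and 7.09 against 7.20, 7.05 and 7.04, close to the filter limit, and differed by -0.05.

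Their binding sequence, known as the CLEAR element, is centred on the E-box. Windows of RefSeq's promoter table were used for 35 of the listed genes, 21 of the lysosome, 12 of autophagy and both transcription factor genes. Any window of a listed gene on a chromosome left out of this search was not read, while the share over all windows covers every chromosome. The E-box CACGTG occurred in 10 of the 21 lysosome genes and in Atg5 and Atg7 among the 12 autophagy genes, and 7.15% of all promoter windows hold it. A gene was counted if any of its windows matched, whereas the shares are over single windows, so the units differ. The longer core TCACGTGA, which contains the E-box, occurred in 6 lysosome genes and 0 autophagy genes, and in 0.974% of all windows. Each match is given in 30 bases, 5′ to 3′ on the strand of the gene (build GRCm38.p6), with the core in capitals, because it belongs to the element named above:
Ctsa, chr2:164833749-164833778, plus strand: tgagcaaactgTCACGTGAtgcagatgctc
Ctsa again, chr2:164833766-164833795, plus strand: gatgcagatgcTCACGTGAccagagctaca
Ctsd, chr7:142387908-142387937, minus strand: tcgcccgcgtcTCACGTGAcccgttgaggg
Mcoln1, chr8:3500462-3500491, plus strand: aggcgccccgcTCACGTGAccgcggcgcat
Atp6v0d1, chr8:105566050-105566079, minus strand: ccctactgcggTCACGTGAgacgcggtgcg
Atp6v1a, chr16:44139373-44139402, minus strand: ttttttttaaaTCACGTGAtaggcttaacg
Gla, chrX:134601215-134601244, minus strand: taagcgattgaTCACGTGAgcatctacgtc
Gla again, chrX:134601182-134601211, minus strand: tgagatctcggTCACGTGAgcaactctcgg
Of the 6 genes with the core, 5 were tested and 0 were called in limma, beside 3.44% of all tested genes, a share too low for so few genes to be read against it. Ctsa, Mcoln1, Atp6v1a, Ctsd and Atp6v0d1 differed by 0.55, 0.37, 0.12, -0.21 and -0.23, and the untested Gla by -0.07. Of the 5 autophagy genes whose groups did not overlap, Gabarapl1, Map1lc3b, Ulk1 and Wipi1 had windows, and none of these held the E-box. With the E-box in 7.15% of all windows, so few genes cannot be read against that share.

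Arrays of 1 group were not interchangeable for the lysosome genes. TDA2 was the highest of the 6 arrays in 9 of 23 tested lysosome genes, beside 22.8% of all tested genes, and TDA1 in 0 of 23, beside 13%. The median over lysosome genes of each gene's deviation from its own mean was 0.26 on TDA2. It was -0.11 on both TDA1 and TDA3, and 0.00 on TMA1, 0.05 on TMA2 and 0.02 on TMA3. TDA2 thus lay above all TMA arrays while the other TDA arrays lay below them. For autophagy the medians were 0.00, 0.45 and 0.15 on TMA arrays, compared with -0.44, -0.08 and -0.21 on TDA arrays, which did not overlap. TDA1 was the lowest array in 9 of 13 tested autophagy genes, where it was lowest in 12% of all tested genes.

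**Figure D5:**
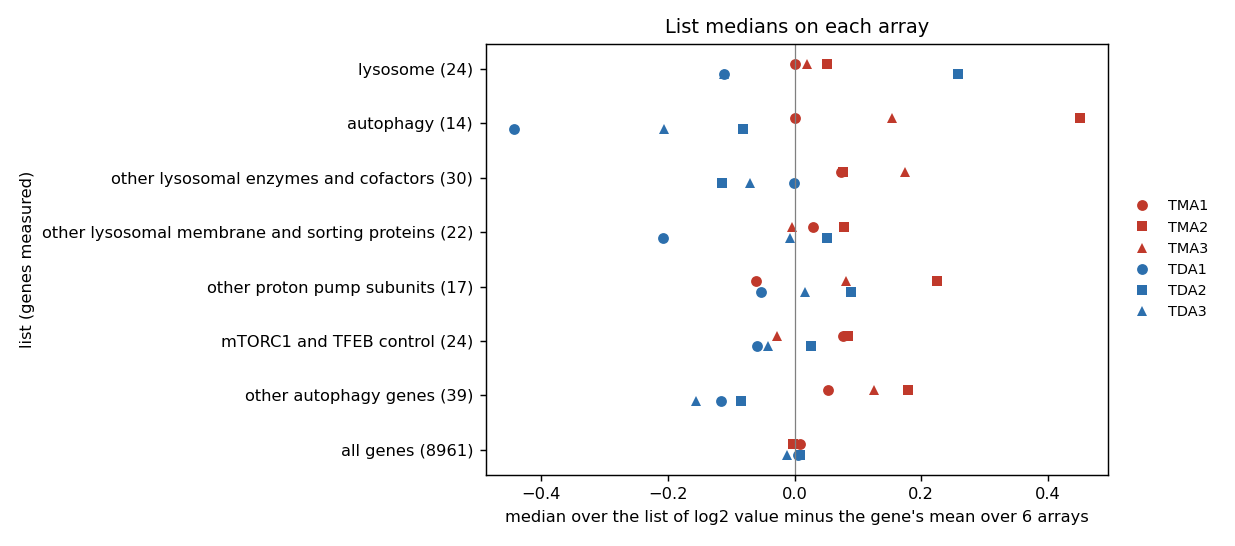
Median over each list of the log2 value minus the gene's mean over the 6 arrays (horizontal axis), with 1 row per list and its number of measured genes (vertical axis), red for TMA and blue for TDA, and a circle, square or triangle for replicate 1, 2 or 3. TDA2 stands at 0.26 for the lysosome, the groups are apart for both autophagy lists and for the other lysosomal enzymes, and all genes lie near 0 on every array.

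A wider set of 147 genes of the same pathways held 132 measured and 109 tested genes. Of these, 6 rose and 0 fell in limma, beside 1.72% of all tested genes in each direction. They were 3 of 22 other lysosomal enzymes, 1 of 18 genes of mTORC1 and TFEB control and 2 of 35 other autophagy genes, with 0 of 19 membrane and sorting proteins and 0 of 15 other proton pump subunits. The count was 0 without TMA2, TMA3 or TDA1 in limma, with 17, 21 and 19 of these genes at an unadjusted p under 0.05, it was 10 without TMA1 and 2 without TDA3, and it was 1 with median scaling. Every TMA array lay above every TDA array in 30 of the 109 tested genes and below in 3. Over all tested genes it was 12.4% and 11.4%. Among these 30 were 8 of 22 other lysosomal enzymes and 12 of 35 other autophagy genes. At an unadjusted p under 0.05 in limma, 6 of the enzymes were higher and 1 lower, beside 10.1% and 9.28%. For the other autophagy genes it was 7 and 0. Higher values were thus not particular to the autophagy lists.

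Ctsf, a cysteine cathepsin, rose most clearly, from 7.30, 7.01 and 7.22 on the TDA arrays to 8.30, 8.38 and 8.22 on the TMA arrays, a difference of 1.12 ± 0.19 (standard error, limma adjusted p = 0.0134). Its arrays were close together within each group. Pla2g15, the lysosomal phospholipase A2, rose by 0.89 (adjusted p = 0.0321), and Arsa, the sulfatase that degrades sulfatide, by 0.96 (adjusted p = 0.0445). Among the lysosomal membrane and sorting proteins, Laptm4a, Igf2r (the mannose 6-phosphate receptor that sorts hydrolases) and Cln3 had the smallest p, with differences of 0.92, 0.77 and 0.56 and adjusted p of 0.0853, 0.0931 and 0.230.

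Bnip3l, a receptor for the autophagy of mitochondria, read 11.06, 11.24 and 11.58 on the TMA arrays, whereas the TDA arrays gave 10.40, 9.95 and 9.79. It rose by 1.25 ± 0.23 (standard error, limma adjusted p = 0.0178), with every TMA array above every TDA array. Vmp1, a membrane protein needed to form autophagosomes, read 11.71, 12.41 and 12.37 against 10.89, 11.17 and 10.90 and rose by 1.18 (adjusted p = 0.0232). Nprl2, a subunit of the complex that restrains mTORC1 when amino acids are short, rose by 0.96 (adjusted p = 0.0401). The other subunits of that complex did not share this rise. Nprl3 differed by -0.48 and Depdc5 by 0.05 (limma adjusted p = 0.340 and 0.933). Lamtor1, of the same list, was lower on every TMA array than on every TDA array, with a difference of -0.70 (adjusted p = 0.102). Mtor itself differed by 0.01. The pump subunits with the smallest p, Atp6v1g2, Tcirg1 and Atp6v1b2, had differences of 0.80 (adjusted p = 0.107), 0.55 (0.201) and 0.62 (0.309). Medians of the log2 difference were 0.26 over the measured other autophagy genes, 0.15 over other lysosomal enzymes, 0.11 over membrane and sorting proteins, -0.05 over other pump subunits (0.08 over the 15 tested) and 0.02 over mTORC1 and TFEB control.

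Markers were read for the cells a culture could hold. Of 7 epithelial markers 6 were measured and 5 tested, and Krt8, Krt18, Cdh1, Cldn4 and Cldn7 were above the filter. In limma 0 of these 5 passed, and 2 were higher at an unadjusted p under 0.05. These were Cldn4, a tight junction protein, with a difference of 1.90 (adjusted p = 0.0576), and Cdh1, the adhesion protein E-cadherin, with 0.47 (adjusted p = 0.231). Their part in the results was not tested. Fibroblast, leukocyte, endothelial and adipocyte lists left 1 of 7, 2 of 7, 2 of 4 and 1 of 4 measured genes above the filter. Limma called 0 of these 6 non-epithelial genes, with 0 at an unadjusted p under 0.05. Over all tested genes 3.44% were called, and 10.1% were higher and 9.28% lower at the unadjusted limit. Lists of 5 or 6 genes are too short to be read against these shares. The endothelial marker Pecam1 was higher on every TMA array than on every TDA array, by 0.36 (limma adjusted p = 0.363), a separation found in 12.4% of all tested genes. Leukocytes are rich in lysosomes. Their list averaged 8.05, 7.93 and 7.65 in the TMA group beside 7.92, 7.91 and 8.08 in the TDA group. The markers Ptprc, Adgre1, Itgam, Lyz2 and Cd3e were below the filter on the mean of all arrays. Csf1r and Cd14 were above it and lower on the TMA arrays, with differences of -0.31 and -0.60 (limma adjusted p = 0.499 and 0.291). Cd14 was the bright member, at 14.36, 13.07 and 13.66 against 14.43, 14.16 and 14.29. In bulk RNA, fewer cells of a type and less RNA per cell cannot be told apart.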

How the data were processed

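Per the labels' protocols, Trizol was used to extract total RNA and labelling followed Illumina's standard procedure. The deposited non-normalized table holds a signal intensity for each probe on each array, without background subtraction or detection p-values. The authors' deposited log2 values, whose normalization is not given in the sources used here, served as an alternative. Their array medians were 8.16, 8.17, 8.16, 8.16, 8.16 and 8.17, and their rank correlations with the intensities exceeded 0.999. Of 25697 probes, 23846 had 1 gene symbol, 0 had several and 1851 were unnamed here. Entrez identifiers of 23830 probes matched the RefSeq gene table, and 0 symbols changed.

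Intensities were corrected with normexp (offset 50), quantile normalized and tested with lmFit and eBayes in limma 3.58.1 (R 4.3.3), two-sided, threshold 0.05. The 12848 tested probes had a mean log2 value above the median. Prior and residual degrees of freedom were 8.14 and 4. Intervals are 95% and unadjusted.

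The comparison was tested on simulated data with 12848 probes: 0 of 50 changes of 0.5 on the log2 scale were recovered, 20 of 50 of 1, 35 of 50 of 1.5 and 45 of 50 of 2, with 1 false call. Every measured member was named. Values on all arrays were printed for members that passed, had an unadjusted p under 0.05 or had groups apart, and for the brightest and the most different member of each role. Some others were added after their values were seen, as were the probe-level counts and the counts of highest and lowest arrays. From each wider list, genes past the threshold or the 3 with the smallest p were named. In the list of mTORC1 and TFEB control, Mtor, Nprl3, Depdc5 and Lamtor1 were named as well, after their values were seen. The members and lists were chosen with earlier results of these data known. Figures used matplotlib 3.10.9 under Python 3.11.15.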

Additional observations from a re-analysis of the deposited data

How the results depend on the processing

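The number of probes past the threshold (387) was 135 in the authors' table, 198 without background correction, 232 with the stricter filter (means above the 75th percentile), 129 with median scaling and 1906 with array quality weights, and ranged from 0 to 691 with 1 array left out. The number of members past it (1) was 0 in the authors' table, with an offset of 16, with the stricter filter, with median scaling and without background correction, 8 with array quality weights, 3 with any tested probe of a gene, and 0 to 6 with 1 array left out. In limma, 7 to 8 members had an unadjusted p under 0.05 in each setting with 0 calls. The wider count (6) was 3 in the authors' table, 1 with median scaling, 23 with array quality weights and 0 to 10 with 1 array left out. For these changes the cause was not tested, beyond the fewer probes under the stricter filter and the fewer arrays.

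The list medians moved by less than the spread of the array medians. They ranged from 0.27 to 0.52 (autophagy) and from 0.01 to 0.16 (lysosome) with 1 array left out, and were 0.23 and 0.03 in the authors' table. Of 640 recomputed member values, 30 changed sign, 23 of them with 1 array left out and 0 among members with an unadjusted p under 0.05. With the replicate number as a block, 518 probes and 3 members (Gabarapl1, Map1lc3a and Wipi1) passed. Deviations of same-numbered arrays correlated at 0.126, 0.0133 and 0.0269, not over 0.1 in every pair, so the numbers were not taken as pairs. In the simulated data, where 12648 of 12848 probes were unchanged, 0 of 50 changes of 0.5 were recovered. Changes of that size may thus go uncalled. Recovery with a larger share of changed probes was not simulated.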
